A study of Rattus norvegicus with 26 samples.

Results

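Soleus muscles of 26 aged female rats were sorted by their own level of Myh2, the gene of myosin heavy chain 2A, and the rest of the transcriptome was compared between the high and the low muscles. Within each of 4 groups, a library above the group's median Myh2 was classed as high and a library below it as low. This gave 12 high and 12 low libraries of the 26, and the median library was left out in both groups of 5. The classes are not a treatment: they were chosen by Myh2, so Myh2 itself is only described here and was left out of every test.

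The rats came from lines bred for low or high running capacity (LCR and HCR, generation 44), fed standard chow and kept under the same light cycle. Sedentary rats never had a running wheel (8 LCR and 8 HCR), and the runners lived in pairs with a wheel for more than 5 months (5 LCR and 5 HCR). No group carried an introduced allele or was given a drug in the labels, and no exact age is given. Cage mates among the runners could not be identified, so animals that shared a cage entered as separate samples. The sequencing method read the 3′ ends of polyadenylated transcripts, and abundance is given as CPM, a gene's count for each megacount in the library's total. Libraries held 1.1 to 2.52 megacounts (M). For 2 libraries the title starts with the name of the opposite line: the fifth HCR and the fifth LCR runner. They were grouped by their genotype, which matched the description in all 26 libraries, and both lay in the high class, so a paragraph near the end gives the main values without them.

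Skeletal muscle fibres are classed by the myosin heavy chain they carry: Myh7 marks slow type 1 fibres, Myh2 fast oxidative type 2A fibres, Myh1 type 2X fibres and Myh4 type 2B fibres. Rat soleus is a postural muscle built mainly of type 1 fibres with a minority of type 2A fibres. Fast fibres also use their own forms of the troponin subunits (Tnni2, Tnnt3, Tnnc2), of tropomyosin (Tpm1) and of the calcium pump of the sarcoplasmic reticulum (Atp2a1), where slow fibres use Tnni1, Tnnt1, Tnnc1, Tpm3 and Atp2a2.

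Soleus markers were present throughout. Myh7 was present at 7511 to 12560 CPM in every library, with Tnni1 at 2329 to 3199 CPM and Tnnt1 at 7176 to 11330 CPM. Markers of types 2X and 2B were detected in all 26 libraries, with Myh1 at 58.8 to 1243 CPM and Myh4 at 10.2 to 307 CPM. In whole muscle, more fibres of a type and more RNA per fibre cannot be told apart.

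Myh2 varied at least 2.17-fold inside each group. Among sedentary LCR rats the low libraries stood at 1008, 2403, 2424 and 2609 CPM and the high ones at 2738, 4030, 4400 and 4671 CPM. Among sedentary HCR rats the low libraries stood at 344, 358, 643 and 1022 CPM and the high ones at 1957, 2194, 2601 and 2617 CPM. The sedentary HCR muscles therefore fell into classes with a wide gap, whereas in sedentary LCR muscles the classes met near the median. Running LCR rats had 1110 and 2979 CPM in the low class, 3054 CPM in the median library, and 3077 and 4770 CPM in the high class. Running HCR rats had 251 and 272 CPM in the low class, 511 CPM in the median library, and 515 and 545 CPM in the high class. The lowest high library stood above the highest low one by 4.95% in sedentary LCR, 91.5% in sedentary HCR, 3.29% in running LCR and 89.7% in running HCR rats. In running HCR rats the median library that set the threshold, at 511 CPM, lay just below the lowest high library, at 515 CPM. Both high running HCR muscles held less Myh2 than every LCR muscle, so the class is a position within a group, not a level. Highest and lowest library of a group differed 4.63-fold in sedentary LCR, 7.60-fold in sedentary HCR, 4.30-fold in running LCR and 2.17-fold in running HCR rats.

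**Figure D1:**
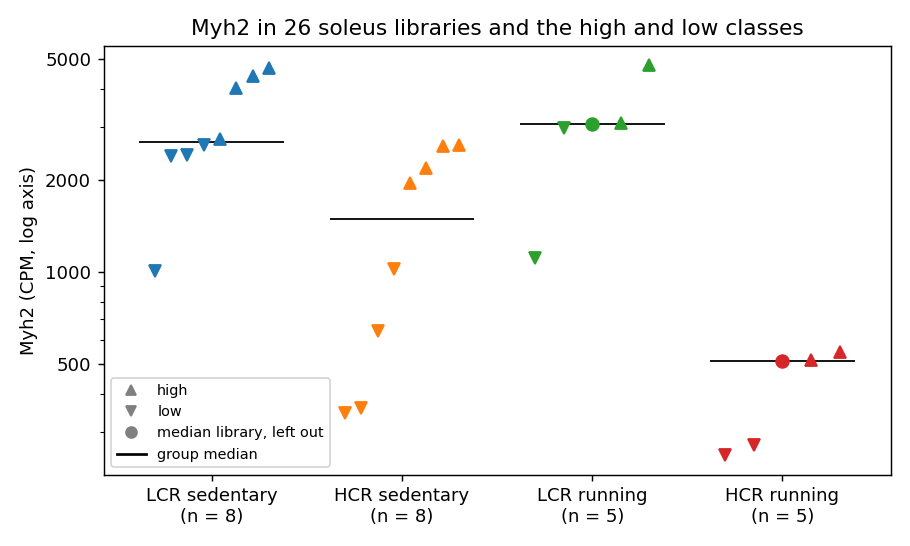
Myh2 in CPM (log axis) in each of the 26 libraries, by group; upward triangles are the high class, downward triangles the low class, circles the 2 median libraries left out, and lines the group medians. The gap between the classes is wide in the HCR groups (91.5% and 89.7%) and narrow in the LCR groups (4.95% and 3.29%). In running HCR rats the median library left out (511 CPM) lies just below the lowest high library (515 CPM).

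The comparison asks which other transcripts stood higher or lower in muscles with more Myh2 than others of the same line and activity. The 6 genes with the smallest p among the 10201 tested were all genes of the fast-fibre apparatus: Tpm1, Tnni2, Myoz1, Tnnt3, Atp2a1 and Tnnc2, with levels 1.39-fold to 1.96-fold higher in the high class. None of them passed the adjusted threshold, and the edgeR quasi-likelihood test called 0 genes of all tested (0% called, smallest adjusted p = 0.282). At an unadjusted p under 0.05 the same test counted 389 genes, 222 higher (2.18%) and 167 lower (1.64%), against 510 that a share of 5% would give. DESeq2 called 5 genes in the same libraries, all higher (Tnnt3, Tpm1, Tnni2, Atp2a1 and Myoz1), and limma voom with quality weights called 0. Single libraries could decide a call: without HCR sedentary 6 the edgeR test called Tnni2 (adjusted p = 0.00108), Tnnt3 and Tpm1 (both 0.0198), without HCR sedentary 7 it called Tpm1 (0.0221), and without HCR running 3 it called Myoz1 (0.00834). The median log2 fold change over all genes was 0.0024, and 50.7% lay above 0.

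A second fit took log2 Myh2 as a continuous measure in all 26 libraries, with group as a term, so that near-median libraries were no longer treated as opposites. It called 5 of 10063 genes as higher with Myh2 (0.0497%) and 0 as lower, and all 5 are fast-fibre genes. Per doubling of Myh2, the log2 level of Tnni2 rose by 0.70 (SE 0.07, edgeR adjusted p = 8.38e-06), Atp2a1 by 0.35 (SE 0.05, adjusted p = 0.000775) and Tnnc2 by 0.37 (SE 0.06, adjusted p = 0.000775). Myoz1 rose by 0.37 (SE 0.07, adjusted p = 0.0135) and Tnnt3 by 0.50 (SE 0.09, adjusted p = 0.0194). Tpm1 had a slope of 0.35 (SE 0.07) and missed the threshold at an adjusted p of 0.0539. The continuous fit was not repeated with single libraries left out, with a depth term or without the libraries of conflicting title. Whether its calls depend on these was therefore not tested.

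Tnni2 encodes the fast form of troponin I, the inhibitory subunit of the calcium switch on the thin filament. In sedentary LCR muscles it stood at 398, 486, 530 and 583 CPM in the low class and at 816, 837, 905 and 1012 CPM in the high class. In sedentary HCR muscles it stood at 54.3, 167, 235 and 319 CPM against 391, 426, 490 and 551 CPM. The classes did not overlap in either sedentary group. Running HCR muscles had 63.5 and 102 CPM in the low class and 112 and 154 CPM in the high class. Running LCR muscles had 344 and 607 CPM against 604 and 889 CPM and were the only group in which the classes overlapped. The fitted log2 fold change was 0.97 (SE 0.20, 95% interval 0.56 to 1.38, adjusted p = 0.331, edgeR). The high mean lay above the low mean in 4 of 4 groups, as it did for 6.42% of all genes. The share of all genes without overlap was not counted, and the 6 genes described here had the smallest p on these same classes. Separation of the classes in a group is therefore description and adds no support.

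Tpm1, the tropomyosin that fast fibres and heart use, had the smallest p. Sedentary LCR muscles held 1092, 1429, 1465 and 1526 CPM in the low class and 1604, 1648, 1711 and 1921 CPM in the high class. Running HCR muscles held 472 and 544 CPM against 843 and 950 CPM, and running LCR muscles 1155 and 1335 CPM against 1613 and 2095 CPM. These 3 groups showed no overlap. In sedentary HCR muscles the ranges did overlap, at 499, 660, 1065 and 1233 CPM against 1111, 1160, 1516 and 1622 CPM. The log2 fold change was 0.60 (SE 0.12, 95% interval 0.36 to 0.85, adjusted p = 0.282, edgeR).

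Tnnt3, fast troponin T, which ties the troponin complex to tropomyosin, stood at 880, 1093, 1173 and 1188 CPM in low and 1362, 1474, 1643 and 1683 CPM in high sedentary LCR muscles. Sedentary HCR muscles had 230, 515, 588 and 753 CPM against 646, 792, 808 and 1416 CPM. Both low running HCR muscles were at 184 CPM, below the 321 and 388 CPM of the high ones. Running LCR muscles had 581 and 1055 CPM against 986 and 1506 CPM. Classes were apart in sedentary LCR and running HCR rats and overlapped in the other groups, with a fitted log2 fold change of 0.74 (SE 0.16, 95% interval 0.41 to 1.07, adjusted p = 0.331).

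Tnnc2, fast troponin C, the subunit that binds calcium, ranged from 693 to 2798 CPM in the low class (median 1891) and from 1421 to 3072 CPM in the high class (median 2365). The classes were apart in both running groups, at 1878 and 1952 against 2244 and 2646 CPM in LCR and at 812 and 1043 against 1421 and 1473 CPM in HCR rats. They overlapped in both sedentary groups. Its log2 fold change was 0.47 (SE 0.12, 95% interval 0.23 to 0.72, adjusted p = 0.882, edgeR).

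Atp2a1 encodes SERCA1, the fast-fibre pump that returns calcium to the sarcoplasmic reticulum. It stood at 585, 722, 818 and 840 CPM in low and 861, 880, 929 and 1196 CPM in high sedentary LCR muscles, with no overlap. In sedentary HCR muscles 3 low libraries lay at 558, 565 and 570 CPM and the fourth at 928 CPM, inside the range of the high ones (718, 946, 994 and 1041 CPM). Running LCR muscles had 681 and 764 CPM against 917 and 1143 CPM, and running HCR muscles 608 and 734 CPM against 680 and 1108 CPM. Running LCR rats showed no overlap, running HCR rats did, and the log2 fold change was 0.50 (SE 0.12, 95% interval 0.26 to 0.74, adjusted p = 0.436).

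Myoz1 is a protein of the Z-disc of fast fibres that binds calcineurin. Sedentary HCR muscles had 20.1, 21.2, 27.8 and 30.5 CPM in the low class and 44.7, 51.3, 53.5 and 53.5 CPM in the high class, and did not overlap. Sedentary LCR muscles had 31.3, 36.1, 42.6 and 50.7 CPM against 46.9, 48.0, 59.8 and 65.8 CPM. In running HCR muscles the class means lay close together, at 41.2 ± 19.9 (SD, n = 2) in low and 40.7 ± 2.29 (n = 2) in high libraries. Running LCR muscles stood at 45.8 and 50.3 CPM against 59.4 and 61.2 CPM, and the fitted log2 fold change was 0.59 (SE 0.13, 95% interval 0.32 to 0.86, adjusted p = 0.331).

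**Figure D2:**
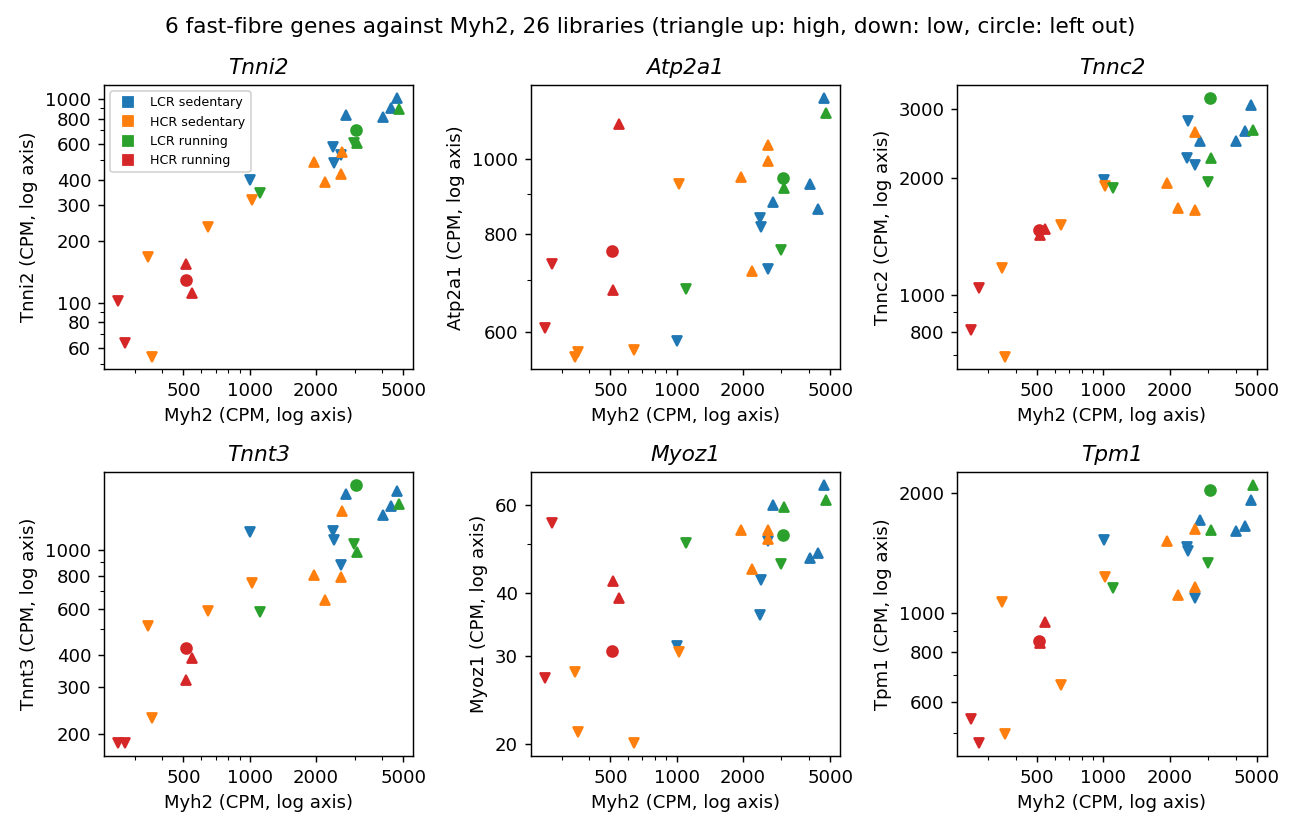
Each panel plots 1 fast-fibre gene (CPM, log axis) against Myh2 (CPM, log axis) in the 26 libraries; colours are the groups, upward triangles the high class, downward triangles the low class and circles the libraries left out. Tnni2 follows Myh2 most closely (r = 0.87 within groups), and Tpm1 least of the 6 (r = 0.70).

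When each gene of at least 4 on the average log2 CPM scale was correlated with Myh2 across the 26 libraries after removal of group means, these 6 genes were the 6 most alike. Pearson's r was 0.87 for Tnni2, 0.82 for Atp2a1, 0.77 for Tnnc2, 0.75 for Tnnt3, 0.73 for Myoz1 and 0.70 for Tpm1, of 6296 genes. With TMM scaling the values were 0.89, 0.82, 0.81, 0.78, 0.76 and 0.74, in the same order. The next genes on the plain CPM scale were the dual-specificity phosphatase Dusp26 (0.59), Sema6c, a semaphorin (0.55), the junctophilin Jph1 (0.54) and Galns (0.52). With TMM scaling the next were instead Ppp3ca (0.69), Dusp26 (0.64), Adsl (0.64) and Pde2a (0.64). Sema6c (0.63), Jph1 (0.63) and Galns (0.58) ranked below them there. At the other end of the plain scale stood Scfd1 (-0.67), Nol11 (-0.66) and Rcan2 (-0.65), an inhibitor of calcineurin, but with TMM scaling Scfd1 (-0.52) and Rcan2 (-0.50) ranked 30 and 39 from the bottom. The lowest there were Arfip1 (-0.68) and Klhl9 (-0.66), with Nol11 (-0.61) at rank 4. Values of different genes share the libraries and their depth: on the plain CPM scale 74.8% of genes had an r below 0, and with TMM scaling 48.9%. The correlations are descriptions and carry no test.

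Because these genes were so alike across the libraries, the 250 bases before the RefSeq transcription start are shown for Myh2 and the 3 genes most like it, on the rat assembly GRCr8 (the counts were aligned to mRatBN7.2). Capitals mark matches to the E-box, CANNTG on both strands, the motif bound by myogenic bHLH factors, and to the MEF2 motif. The windows are chr10:52355489-52355738 (plus strand) for Myh2, chr1:207024240-207024489 (plus) for Tnni2, chr1:190475411-190475660 (minus) for Atp2a1 and chr3:173935340-173935589 (minus) for Tnnc2.
Myh2: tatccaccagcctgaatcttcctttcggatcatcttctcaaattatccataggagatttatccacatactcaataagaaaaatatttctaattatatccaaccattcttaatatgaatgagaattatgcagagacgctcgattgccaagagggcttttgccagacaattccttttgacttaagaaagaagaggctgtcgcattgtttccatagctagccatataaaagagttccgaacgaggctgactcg
Tnni2: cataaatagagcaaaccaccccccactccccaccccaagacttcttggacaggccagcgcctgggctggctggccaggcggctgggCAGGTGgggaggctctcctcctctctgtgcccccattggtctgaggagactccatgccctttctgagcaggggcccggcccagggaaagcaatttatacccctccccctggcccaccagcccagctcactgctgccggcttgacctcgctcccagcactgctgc
Atp2a1: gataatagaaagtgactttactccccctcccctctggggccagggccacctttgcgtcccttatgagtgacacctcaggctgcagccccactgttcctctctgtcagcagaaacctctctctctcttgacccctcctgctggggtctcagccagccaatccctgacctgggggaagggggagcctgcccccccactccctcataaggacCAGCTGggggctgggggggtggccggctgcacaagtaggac
Tnnc2: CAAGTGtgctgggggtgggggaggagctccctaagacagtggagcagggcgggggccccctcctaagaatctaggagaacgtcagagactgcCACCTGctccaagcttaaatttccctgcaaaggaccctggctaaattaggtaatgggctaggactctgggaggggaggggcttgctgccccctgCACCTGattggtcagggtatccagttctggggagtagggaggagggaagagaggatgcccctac

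The Myh2 window held 0 E-box matches, Tnni2 and Atp2a1 held 1 each, and Tnnc2 held 3. Tpm1 and Myoz1 held 1 each, and of the slow-fibre genes Tnni1 and Tnnt1 held 2, Myh7 held 3 and Atp2a2 held 1. An E-box lies in 65.5% of the 33469 promoter windows of the same length. A MEF2 match was found for Myoz1 only of these 10 genes (2.96% of all windows), as was a match to the MEF3 motif TCAGGTT (3.30% of all windows). Windows of Tnnt3 and Tnnc1 were not analysed here.

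The list of 15 fast-fibre contractile genes held 6 that were higher at an unadjusted p under 0.05 (Tpm1, Tnni2, Myoz1, Tnnt3, Tnnc2 and Myl11) and 0 that were lower, where 2.18% of all genes were higher. Of these 15 genes 13 lay above 0, with a median log2 fold change of 0.28 against 0.0024 for all genes tested. Myl11, the fast regulatory light chain, had a log2 fold change of 0.44 (SE 0.17, unadjusted p = 0.0161, adjusted p = 1.00). Its high and low libraries ranged from 404 to 1368 and from 209 to 1037 CPM, and running LCR rats went the other way, at 664 ± 104 CPM (SD, n = 2) in high and 775 ± 115 CPM (n = 2) in low muscles. Myl1, the fast essential light chain, differed by 0.14 (95% interval -0.0042 to 0.28).

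The faster myosins and their companions varied widely between muscles of a class. Myh1, the type 2X myosin, had a log2 fold change of 0.28 with a 95% interval of -0.61 to 1.16. Its 2 high running LCR muscles (58.8 and 100 CPM) lay below the 2 low ones (173 and 182 CPM), while the high running HCR muscles (219 and 283 CPM) lay above the low ones (112 and 119 CPM). Myh4, the type 2B myosin, had a log2 fold change of -0.87 (95% interval -1.85 to 0.11, unadjusted p = 0.0793). It was at 27.3, 28.9, 57.0 and 79.5 CPM in high and 60.5, 85.0, 103 and 162 CPM in low sedentary LCR muscles. In running HCR muscles 1 low library held 307 CPM and the other 10.2 CPM, so the classes cannot be read apart there. Pvalb, the calcium buffer of the fastest fibres, differed by -0.35 (95% interval -1.40 to 0.70) and ranged from 10.2 to 1316 CPM in the high class. Actn3, the fast-fibre actinin, differed by 0.27 (95% interval -0.37 to 0.92). Leaving out single libraries moved Myh1 between 0.04 (without HCR sedentary 3) and 0.48 (without LCR sedentary 5), and Myh4 between -1.08 (without HCR sedentary 3) and -0.46 (without HCR running 2). Actn3 moved between 0.02 (without HCR sedentary 3) and 0.39 (without HCR sedentary 7), and Pvalb between -0.68 (without LCR sedentary 2) and -0.17 (without LCR running 5). Each of the 4 intervals includes 0, so at this spread between muscles no direction was established for these genes.

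Slow-fibre genes differed little between the classes, with narrower intervals around 0. Myh7 was at 9476 to 12040 CPM in the low class (median 10670) and at 7511 to 12560 CPM in the high class (median 11240), a log2 fold change of 0.06 (95% interval -0.12 to 0.25). The intervals were -0.08 to 0.19 for Tnni1, slow troponin I, -0.10 to 0.25 for slow troponin T (Tnnt1) and -0.12 to 0.25 for the slow and cardiac troponin C (Tnnc1). Myl2 and Myl3, the slow light chains, differed by 0.04 (95% interval -0.12 to 0.21) and 0.12 (-0.05 to 0.30), and the slow calcium pump Atp2a2 by 0.02 (-0.18 to 0.22). Of the 15 slow contractile genes 1 was higher at an unadjusted p under 0.05 (Csrp3, 0.31, SE 0.14, a Z-disc protein of slow and cardiac muscle). None was lower, where 2.18% of all genes were higher and 1.64% lower. Of the 15, 14 lay above 0 (median 0.06), beside 50.7% of all genes. With log2 total count added to the fit 4 did (median -0.02). The fast contractile list had 12 of 15 above 0 with that depth term, and a median of 0.40.

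**Figure D3:**
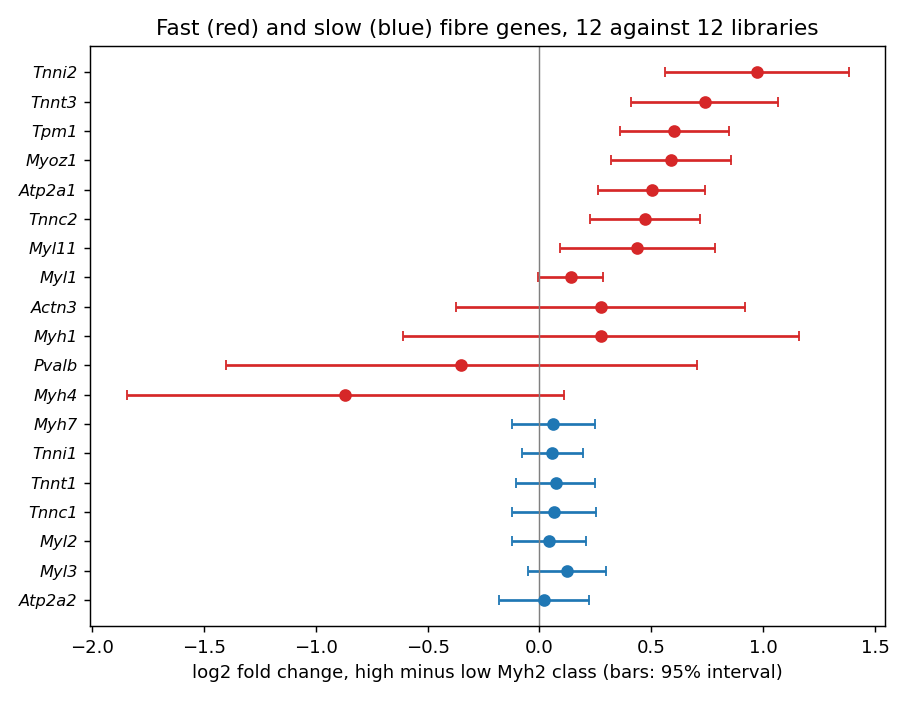
Log2 fold change between the high and low Myh2 classes (x axis) with its 95% interval, for 12 fast-fibre genes (red) and 7 slow-fibre genes (blue), 12 against 12 libraries. The fast troponins, Tpm1, Myoz1 and Atp2a1 lie at 0.47 to 0.97, the slow genes at 0.02 to 0.12, and Myh1, Myh4, Pvalb and Actn3 have wide intervals across 0.

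Among calcium-handling genes the pump stood out by size. Of 15 tested fast-fibre calcium genes 3 were higher at an unadjusted p under 0.05 (2.18% of all genes were): Atp2a1, Jph1, which holds the T-tubule to the reticulum (0.15, SE 0.06), and Asph (0.15, SE 0.07). Ryr1, the calcium release channel, differed by 0.11 (SE 0.09), and Casq1, the fast calsequestrin, by 0.09 (SE 0.07). The list's median was 0.07, and 0.02 with the depth term. Of 6 slow-fibre calcium genes 0 had an unadjusted p under 0.05 in either direction, 2 lay above 0, and the median was -0.03.

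Among 34 regulators of fibre type, 3 were higher at an unadjusted p under 0.05, Sox6 and Ppargc1a among them, and 1 was lower, where 2.18% and 1.64% of all genes were. Sox6, a repressor of slow-fibre genes, differed by 0.21 (SE 0.10, unadjusted p = 0.0405, adjusted p = 1.00, edgeR), with 31.4 to 76.1 CPM in the high class and 32.6 to 49.2 CPM in the low class. The class medians of Sox6 were close, at 42.8 CPM in high and 41.15 CPM in low libraries. The high libraries HCR sedentary 3 (76.1 CPM) and LCR sedentary 2 (54.8 CPM) stood above all others of their groups. Ppargc1a, a coactivator of mitochondrial genes, differed by 0.27 (SE 0.11, unadjusted p = 0.0197), at 30.2 to 76.7 against 23.0 to 57.6 CPM. The lower one was Rcan2, at -0.19 (SE 0.07). On the TMM-scaled log2 CPM scale the high class mean lay above the low one in 4 of 4 groups for Sox6 and Ppargc1a, as it did for 6.42% of all genes. In running HCR muscles these differences were only 0.03 and 0.01, and in plain CPM Ppargc1a stood at 44.1 in high and 44.65 in low muscles. Ranges overlapped in every group for Sox6 and in every group but running LCR rats for Ppargc1a.

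In energy metabolism 3 genes of 5 lists had an unadjusted p under 0.05, all of them higher. Slc16a3, the lactate exporter of glycolytic fibres, had the largest difference of the named genes, 1.15 (SE 0.30, 95% interval 0.54 to 1.76, adjusted p = 0.882, edgeR). Sedentary LCR muscles had 2.44, 4.01, 5.63 and 7.79 CPM in the low class and 9.60, 10.8, 15.0 and 29.5 CPM in the high class, and running LCR muscles 7.19 and 9.36 against 17.3 and 19.6 CPM. In sedentary HCR muscles the means were 2.73 ± 1.65 CPM (SD, n = 4) in low and 2.67 ± 1.47 CPM (n = 4) in high libraries, and the test of the difference between the lines, HCR minus LCR, gave -1.40 for Slc16a3 (SE 0.62, unadjusted p = 0.0313, adjusted p = 1.00). At a few CPM each value rests on few counts. Of 27 tested genes of glycolysis and glycogen Slc16a3 alone had an unadjusted p under 0.05, where 2.18% of all genes were higher and 1.64% lower. Above 0 lay 25 of the 27 (median 0.08), beside 50.7% of all genes, and 16 with the depth term (median 0.02). In sedentary rats alone 19 of 26 lay above 0 (median 0.11), and in running rats alone 14 of 26 (median 0.01). All 13 mitochondrially encoded mRNAs lay above 0, at 0.03 to 0.14, and 10 did with the depth term (median 0.02); 0 had an unadjusted p under 0.05. The 68 nuclear genes of the respiratory complexes held 1 that was higher (Ndufb11), the 25 genes of the TCA cycle 0 and the 32 of fatty acid use 1 (Pnpla2, the triglyceride lipase), against 2.18% of all genes. The medians of these 3 lists were 0.02, 0.04 and 0.03, and with the depth term they were -0.04, -0.03 and -0.09. Above 0 lay 44 of 68, 20 of 25 and 21 of 32 genes, and with the depth term 16, 7 and 7.

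Genes of the nerve-muscle contact and of myogenesis held none at an unadjusted p under 0.05. Of 15 genes of the acetylcholine receptor and the response to denervation 0 had an unadjusted p under 0.05, 2 lay above 0 and the median was -0.08; with the depth term 5 did (median -0.06). Dok7, which activates the receptor kinase of the synapse, had the smallest p, at 0.36 (SE 0.18, unadjusted p = 0.0573). Chrng, the fetal receptor subunit, differed by -0.67 (SE 0.38), and Runx1, a factor raised in denervated muscle, by -0.18 (SE 0.28). In sedentary rats alone 3 of 13 lay above 0 (median -0.17), and in running rats alone 7 of 14 (median 0.04). Of 13 developmental and myogenic genes 0 passed that level, and embryonic Myh3 differed by 0.11 (SE 0.26). Of 18 genes of glucocorticoid response and clock 3 were higher at an unadjusted p under 0.05, where 2.18% of all genes were: Fkbp5 (0.43, SE 0.15), Per1 (0.39, SE 0.13) and Glul, glutamine synthetase (0.20, SE 0.07). Immediate early, heat shock and atrophy genes had 1 higher each, of 17, 22 and 19 tested (Jund, Hspb7 and Fbxo30), beside the same 2.18%.

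Other cell types were followed by their marker lists. Tendon markers had 0 of 6 tested genes above 0 (median -0.29), or 1 of 6 with the depth term (median -0.08), and 0 at an unadjusted p under 0.05, with a summed level of 136 to 616 CPM in high and 192 to 641 CPM in low libraries; Tnmd was at 0 in 4 of 26 libraries and Mkx in 1. Pericyte and smooth muscle markers had 9 of 9 above 0 (median 0.19), where 50.7% of all genes lay. In sedentary rats alone 8 of 8 did (median 0.22), and in running rats alone 5 of 7 (median 0.08). Cnn1 (0.62, SE 0.25) was higher at an unadjusted p under 0.05, 1 of 9 where 2.18% of all genes were. These markers summed to 2348 to 2860 against 2196 to 2820 CPM. Most of that sum is Des, desmin, which muscle fibres also make: without it, left out after its level was seen, the sums were 242 to 468 against 200.4 to 438 CPM. Endothelial markers had 3 of 14 higher, where 2.18% of all genes were (Pecam1, Cldn5 and Cav1, each at 0.20 to 0.25) and summed to 595 to 1063 against 647 to 874 CPM. In sedentary rats alone 12 of 14 endothelial markers lay above 0 (median 0.10), and in running rats alone 7 of 13 (median 0.0011). Macrophage markers summed to 283 to 569 against 230 to 624.5 CPM, and adipocyte markers to 5069 to 6896 against 5210 to 7192 CPM, with 0 of 13 and 0 of 8 tested genes at an unadjusted p under 0.05. Most of the adipocyte sum is Car3, a carbonic anhydrase that slow fibres also make: without it, left out after its level was seen, the sums were 176 to 436 against 264 to 548 CPM. Adipoq, a fat cell hormone, was at 2.35 to 32.9 CPM. Schwann cell, fibro-adipogenic, red cell, class II antigen presentation, lymphocyte and collagen lists held 0 of 6, 0 of 10, 0 of 4, 0 of 6, 0 of 1 and 0 of 27 tested genes at that level. The summed ranges given here overlapped between the classes for every list, and their part in the fast-fibre differences was not tested.

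**Figure D4:**
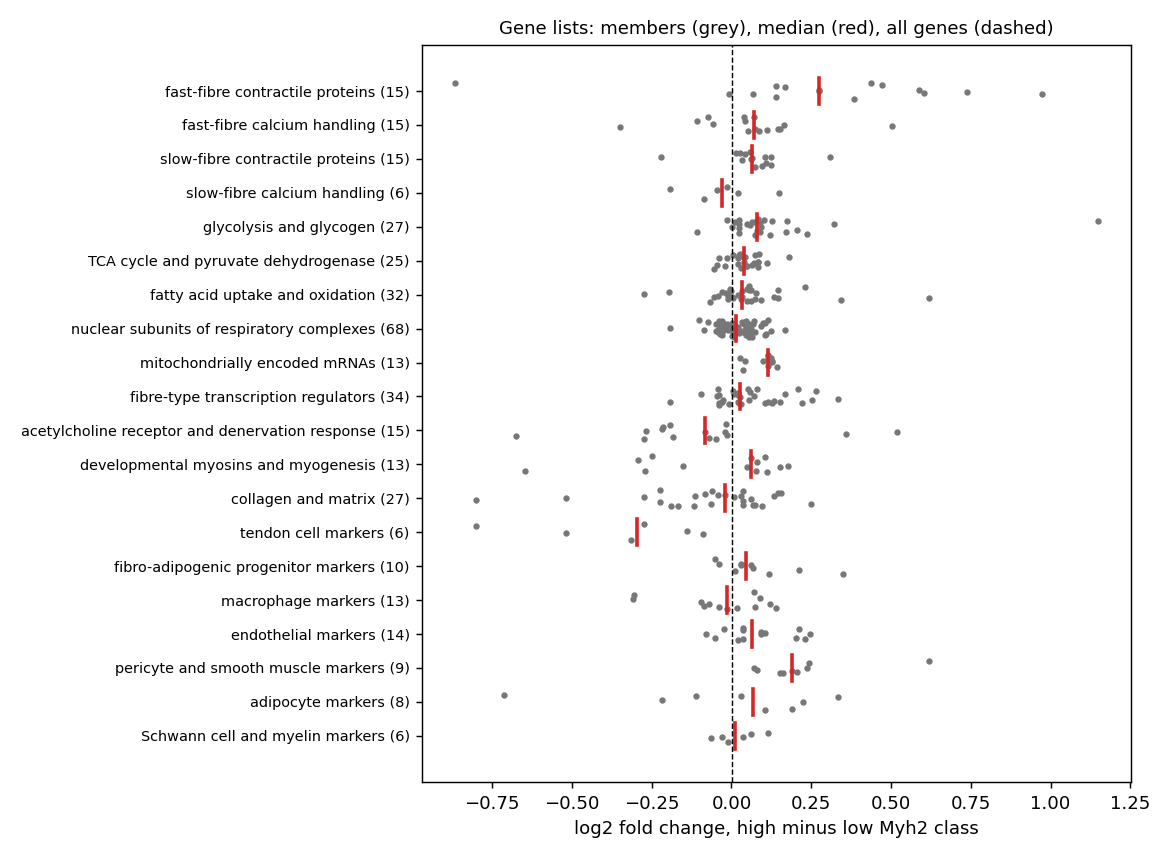
Log2 fold change between the high and low Myh2 classes (x axis) for the tested members of 20 gene lists (grey points), with each list's median in red and the median of all genes (0.0024) as a dashed line; the number of tested genes is in brackets. The fast contractile list has the highest median (0.28) and tendon markers the lowest (-0.29); points are spread vertically at random for legibility.

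Class means of the technical measures were not equal, though none of the 5 differed at an adjusted p under 0.05. Total counts were 1.66 ± 0.356 M (SD, n = 12) in high and 1.85 ± 0.284 M (n = 12) in low libraries (exact 2-sided permutation within groups, p = 0.112, adjusted over 5 measures 0.227). Mitochondrial ribosomal RNA took 6.09 ± 0.884% of counts in high and 5.58 ± 0.524% in low libraries (exact permutation p = 0.0415, adjusted 0.207). The 10 most abundant genes took 22.5 ± 2.16% and 21.4 ± 0.918% (exact permutation p = 0.136, adjusted 0.227). Genes detected numbered 15260 ± 725 in high and 15530 ± 503 in low libraries (exact permutation p = 0.234, adjusted 0.292). Mitochondrial mRNA took 3.28 ± 0.307% and 3.16 ± 0.427% (exact permutation p = 0.309, adjusted 0.309). With log2 total count in the fit, the log2 fold change was 0.93 for Tnni2, 0.71 for Tnnt3, 0.54 for Tpm1, 0.52 for Myoz1, 0.42 for Tnnc2 and 0.36 for Atp2a1.

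Without the 2 libraries of conflicting title the same genes differed by 0.96 for Tnni2, 0.64 for Tnnt3, 0.52 for Tpm1, 0.61 for Myoz1, 0.41 for Tnnc2 and 0.40 for Atp2a1, with 0 genes called (edgeR; 325 at an unadjusted p under 0.05). Slc16a3 differed by 1.05, Myl11 by 0.46, Sox6 by 0.24 and Ppargc1a by 0.27 without them. Both were runners of the high class, which left 1 high library in each running group (LCR running 4 and HCR running 1). The interaction with running, Camk2d included, rests on those 2 high runners in this fit. The fast contractile list then had 12 of 15 genes above 0 (median 0.35), the slow contractile list 10 of 15 (0.03), glycolysis 22 of 27 (0.06), denervation 2 of 15 (-0.12) and tendon 0 of 6 (-0.20). The interactions with running and with line then called 0 genes each (357 and 449 at an unadjusted p under 0.05), with Camk2d at 1.01. Under the line that the title gives, the 6 fast genes differed by 1.39, 1.08, 0.73, 0.61, 0.59 and 0.40 in the order above, again with 0 called (315 at an unadjusted p under 0.05). In that fit HCR running 5 (545 CPM of Myh2) was a low library among the LCR runners. LCR running 5 (4770 CPM of Myh2) was a high library among the HCR runners. If the genotype is right, a difference between the lines therefore enters the high-low contrast of that fit. Within sedentary rats alone Tnni2 differed by 1.07, Tpm1 by 0.51 and Myoz1 by 0.76, and within runners alone by 0.75, 0.78 and 0.25. All 6 genes kept a positive difference in each of the 39 alternative fits, including the 24 that left out 1 library.

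Whether the high-low difference itself differed with running was tested by an interaction. The edgeR test called 0 of 10201 genes (345 at an unadjusted p under 0.05, smallest adjusted p = 1.00; DESeq2 0). For the 6 fast genes the difference of differences, running minus sedentary, lay between -0.51 (Myoz1, 95% interval -1.05 to 0.03) and 0.27 (Tpm1, -0.24 to 0.78). For Tnni2 it was -0.32 (95% interval -1.21 to 0.57), which leaves room for a smaller or a larger difference in runners. The 5 genes of smallest p were Magix (-0.88, SE 0.23), Arl5b (-0.92, SE 0.25), Mbd1 (0.96, SE 0.27), Sdf2 (0.78, SE 0.23) and Camk2d (1.06, SE 0.32). Camk2d, a calcium and calmodulin dependent kinase, stood at 13.9 ± 1.54 CPM (SD, n = 4) in high against 26.01 ± 6.99 CPM (n = 4) in low sedentary LCR muscles, but at 16.1 ± 8.22 against 17.6 ± 5.57 CPM (n = 4 each), with overlap, in sedentary HCR muscles. In runners it stood at 20.3 ± 2.40 (n = 2) against 15.6 ± 0.193 CPM (n = 2) in LCR and at 23.5 ± 4.91 (n = 2) against 14.8 ± 1.67 CPM (n = 2) in HCR muscles.

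The corresponding test between the lines also called 0 of 10201 genes (435 at an unadjusted p under 0.05, smallest adjusted p = 0.417; DESeq2 0). For the 6 fast genes the difference of differences, HCR minus LCR, lay between 0.04 (Atp2a1, 95% interval -0.45 to 0.53) and 0.31 (Tnnc2, -0.17 to 0.79). For Tnni2 it was 0.30 (95% interval -0.53 to 1.13). The smallest p belonged to Asb18, a muscle ankyrin protein with a SOCS box (-1.70, SE 0.36, adjusted p = 0.417, edgeR). Asb18 was lower in the high class in HCR rats, at 11.7 ± 3.49 against 19.6 ± 4.23 CPM (SD, n = 4 each) in sedentary animals, and higher in LCR rats, at 12.0 ± 4.11 against 7.38 ± 2.48 CPM (n = 4 each). Slc25a25 (-1.26, SE 0.31), Fhl2 (-0.77, SE 0.19), Mrm3 (-0.70, SE 0.18) and Slc25a5 (2.03, SE 0.55) followed.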

How the data were processed

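The authors deposited raw counts, whole numbers for 34034 genes in each of 26 libraries, as the values show. Per the labels' protocols, 100 ng of total RNA per muscle was primed with oligo(dT) and read from 1 end. The submitters' processing notes name STAR, featureCounts, UMI-tools and cutadapt, with no version, and the assembly mRatBN7.2. Use of strand and collapsing of molecular identifiers are not given in the sources used here, so overlapping genes and near-identical copies are uncertain.

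The members and the 27 gene lists (504 of 506 members matched) were chosen with earlier results of these data known. Classes used CPM from the column totals. The 24 classed libraries entered edgeR 4.0.16 (R 4.3.3) as raw counts: TMM factors, filterByExpr by group, robust quasi-likelihood F test, a term for each of the 4 groups, Benjamini-Hochberg adjustment at 0.05 over all genes. Standard errors (SE) were derived from the fold change and its F statistic, with 95% intervals from the same fit. The biological coefficient of variation was 0.155. DESeq2 1.42.0, limma 3.58.1 voom, other scalings, no filter, a depth term, subsets and single libraries left out were tried. Log2 CPM used a prior count of 2. Values per group behind the counts of groups are means of TMM-scaled log2 CPM.

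Genes named whatever their p are the fast and slow myosins, troponins, light chains and pumps, Actn3, Pvalb, Sox6, Ppargc1a and Slc16a3. A further gene that the rule names is not reported here. With fewer than 6 genes called, the rule adds the 5 of smallest p in each comparison. Other named genes are list members or the genes most like Myh2, and were chosen after their values were seen. P-values measure the spread between these samples, taken as 1 animal each. Replicate numbers were checked for pairing: of 33 same-numbered pairs of libraries 3 had a correlation of deviations over 0.1 (-0.22 to 0.26). The main test therefore did not pair samples by number, though low correlations cannot show that equal numbers share nothing. No libraries of a group agreed within sampling noise (76 pairs). On simulated counts for 10040 genes in the high-low comparison, 100 genes were changed 1.5-fold and 100 were changed 2-fold. Of these 87% and 99% were recovered, with 8 false calls among 194. The changed genes were drawn from genes of higher counts, and all groups shared a common mean. With so many changed genes the adjusted threshold is easier to pass than where few differ. The recovery therefore does not show which differences the 0 calls in the real data could miss.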

Additional observations from a re-analysis of the deposited data

Results flagged for a closer look

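In 12 of 108 sets of values, each a named gene or a technical measure in 1 group, a single library stood far from the others of its group by Dixon's criterion. For independent, normally distributed values chance gives this in about 1 of 20 sets. These sets share libraries and their distribution was not tested, so an excess over chance is not shown. In sedentary HCR rats library 3, of the high class, stood above the others for Myh1 (1243 CPM, others 104 to 594), Myl11 (1368 CPM, others 439 to 878) and Sox6 (76.1 CPM, others 34.0 to 51.7). The median library of the LCR runners, library 3, which entered neither class, stood above the others for Myh1 (1138 CPM, others 58.8 to 182), Myh4 (116 CPM, others 18.8 to 37.0) and Slc16a3 (50.5 CPM, others 7.19 to 19.6). HCR running 2, of the low class, had 307 CPM of Myh4 where the others had 10.2 to 55.1. In sedentary LCR rats library 2, of the high class, stood above the others for Sox6 (54.8 CPM, others 40.4 to 46.8) and Ppargc1a (43.5 CPM, others 29.7 to 36.1). LCR sedentary 3, also high, had 29.5 CPM of Slc16a3, where the others had 2.44 to 15.0. LCR sedentary 5, of the low class, stood below the others for Myl3 (2827 CPM, others 3277 to 3577) and for the share of counts in the 10 most abundant genes (19.4%, others 21.4% to 22.7%).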

How the results depend on the processing

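The count of 0 called genes for high against low Myh2 became 5 with DESeq2, 5 with continuous Myh2, 54 without a filter on low counts (24 higher, 30 lower) and 0 to 3 when single libraries were left out. It stayed 0 with the other scalings, voom, the depth term, the title's line, single lines, and sedentary or running rats alone. Without the filter the interaction with running called 53 genes and that with line 86; leaving out single libraries gave 0 to 1 in both (Asb18 for line without HCR sedentary 4, LOC120095255 for running without LCR sedentary 1). The unfiltered fit estimated an infinite prior degrees of freedom, against a median of 12.7 with the filter (0.27 for Myh4), so the gene's own spread did not enter, and Myh4 had an adjusted p of 3.57e-17 there. With the replicate block, 2 genes were called for high against low (Tpm1, adjusted p = 0.00772, and Tnnc2, 0.0385, edgeR) and 0 in both interactions; 1 library matched best with a library of its own number. Splitting by TMM-scaled Myh2, chosen after seeing the data, moved 4 libraries between classes (LCR sedentary 1 and 2, HCR running 1 and 4), called 0 genes with 551 at an unadjusted p under 0.05, and gave 0.86 for Tnni2 and 0.53 for Tpm1.

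Reversed directions were confined, among the named genes, to small or wide differences, and the cause was not tested. With the depth term Atp2a2 became -0.13, Myh7 -0.055, Myl2 -0.055, Myl3 -0.0081, Tnnc1 -0.0092 and Tnnt1 -0.061. With the title's line Atp2a2 became -0.13, Tnnc1 -0.011, Tnni1 -0.015 and Tnnt1 -0.0080. Without the conflicting titles Atp2a2 became -0.031 and Myl2 -0.022. In LCR rats alone Actn3 became -0.28, Myh1 -0.32 and Myl1 -0.0056. In HCR rats alone Atp2a2 became -0.061 and Myl2 -0.048, and in sedentary rats alone Myl2 became -0.0605. With TMM-scaled classes Myh1 became -0.15. Single libraries left out gave -0.035 to 0.067 for Atp2a2, -0.0044 to 0.089 for Myl2 and -0.0065 to 0.10 for Tnnc1. At totals of 1.1 to 2.52 M counts, a gene at a few CPM is limited by counting error.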

Other observations

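The median library of the LCR runners, left out of both classes, held 3054 CPM of Myh2. Beside it stood 1138 CPM of Myh1, 1047 CPM of Pvalb, 3208 CPM of Tnnc2, 1780 CPM of Tnnt3, 1285 CPM of Myl11 and 43.1 CPM of Actn3, each the highest of the 5 LCR runners. Tpm1 was at 2031 CPM and Tnni2 at 702 CPM there, both second highest. The median library of the HCR runners held 511 CPM of Myh2, and 262 CPM of Myh1, 423 CPM of Tnnt3, 128 CPM of Tnni2 and 849 CPM of Tpm1.

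Of genes in no list, Ifit3, an interferon-induced gene, had the smallest p after the 7 muscle genes (log2 fold change 0.62, SE 0.17, adjusted p = 0.882, edgeR). Trim21, an antibody receptor and ubiquitin ligase, followed with a difference of -0.57 (SE 0.16, adjusted p = 1.00). Both were chosen after their values were seen.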
